A study of Mus musculus with 4 samples.

Results

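The late-annotated miRNAs of mouse are those with high numbers in the miRBase registry, most of which were found by deep sequencing. Here they are the mature miRNAs with a number of 3000 or more, with the letter, copy suffix and arm of the name ignored and with miR-3070, miR-3071, miR-3072 and miR-5099 left out. This rule used names and no measured value, and it took 171 of the 942 mature miRNAs listed in the data.

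Small RNA from the brain cortex of 4 mice was sequenced, 2 wild-type mice (WT1 and WT2) and 2 AD mice (APP3 and APP4), all of strain B6C3 and 9 months of age. The AD mice carry the APPswe and PS1ΔE9 transgenes, which are expressed beside the mouse's own genes and serve as a model of amyloid deposition and not of the whole disease. WT1 with APP4 and WT2 with APP3 are 2 sibling pairs, so each pair holds 1 mouse of each genotype. The mice are separate animals, with 1 library each.

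A miRNA is cut by Drosha and Dicer from a hairpin RNA, and either arm of the hairpin (5p or 3p) can be loaded into an Argonaute protein. The loaded strand finds its target mRNAs mainly through its seed, bases 2 to 8 from the 5′ end. Many miRNAs that were annotated early are shared by vertebrates and abundant in brain, whereas those annotated late are often found in few species, at low levels and in introns of other genes.

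The sequences shown first are those of the late-annotated miRNAs with the most reads, followed by 3 miRNAs that the comparison of genotypes turned on, with the seed in capitals. They are mature sequences of RefSeq (GRCm38.p6), in which 137 of the 171 miRNAs were found by name.
miR-3099-3p: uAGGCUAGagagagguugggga
miR-3059-5p: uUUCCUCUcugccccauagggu
miR-3068-3p: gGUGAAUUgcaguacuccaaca
miR-3082-3p: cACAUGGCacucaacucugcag
miR-3084-3p: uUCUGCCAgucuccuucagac
miR-3086-5p: uAGAUUGUaggcccauugga
miR-3061-3p: cUACCUUUgauaguccacugcc
miR-3093-5p: cGCACCCCgcggagcucacacu
miR-3085-3p: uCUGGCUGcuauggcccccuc
miR-3081-3p: uUGCGCUCcgaucucugagcugg
miR-5113: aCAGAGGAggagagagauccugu
The abundant miR-3107-5p, miR-3475, miR-6540-5p and miR-3078-5p, and miR-5109 and miR-6243, are named only. No seed is held by more than 1 of the 11 sequences shown, so the most abundant late-annotated miRNAs are not 1 seed family. Of the 137, 57 (41.6%) begin with U, against 36.2% of the 550 older miRNAs (those below miR-1000, let-7 included) that have a sequence, and their median GC content is 52.4% against 47.6%. A length of 21 to 23 nt was held by 81.8% of them and by 90.2% of the older miRNAs. Among the 64 named miR-1000 to miR-2999 with a sequence, 35.9% begin with U and 82.8% have this length. Their median GC content is 57.1%.

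Seeds shared with older miRNAs were few among the miRNAs that have a sequence. Of the 137 miRNAs, 4 have the seed of a miRNA numbered under 3000. A sequence was at hand for 550 of the 681 older miRNAs and 64 of the 82 named miR-1000 to miR-2999. miR-3107-5p, the most abundant of the class, has none and was not searched. The best balanced of the 4 pairs found is miR-5129-3p with miR-455-5p in the seed AUGUGCC.
miR-5129-3p: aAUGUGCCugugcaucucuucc
miR-455-5p: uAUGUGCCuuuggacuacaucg
miR-5129-3p had 221, 153, 126 and 151 reads in WT1, WT2, APP3 and APP4, and miR-455-5p had 139, 89, 144 and 130. Their mean levels were 7.31 and 5.74 reads per 1000000 miRNA reads (RPM), so both miRNAs had similar levels by read count. In the other shared seeds the older miRNA had the higher mean level, with miR-3473d at 1.62 against miR-674-5p at 62.4 RPM, miR-6240 at 0.634 against miR-330-3p at 224 RPM, and miR-3102-5p at 0.0645 against miR-702-5p at 0.133 RPM. Among the late-annotated miRNAs themselves, miR-3085-3p shares the seed CUGGCUG with miR-3064-5p, and miR-3059-5p shares UUCCUCU with miR-5616-5p.
miR-3064-5p: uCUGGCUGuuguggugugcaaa
miR-5616-5p: uUUCCUCUcaucacaaguuga
In both of these seed pairs 1 miRNA was far more abundant: miR-3085-3p had a mean of 13.1 RPM and miR-3064-5p of 0.676 RPM, and miR-3059-5p had 254 RPM and miR-5616-5p 0.0967 RPM.

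Most of the listed late-annotated miRNAs had reads in all 4 libraries, at low levels. A read was counted in all 4 libraries for 113 of the 171 (66.1%), in 3 libraries for 22, in 2 for 17 and in 1 for 19. Every miRNA listed in the data, of any number, had a read in at least 1 library. Unlisted miRNAs without a read are therefore left out of these shares and medians. The number detected in a library was 142 in WT1 and 143 in each of the others, but only 76 had 3 reads or more in every library. A library held between 19048747 (APP4) and 26085776 (WT1) miRNA reads, so 3 reads stand for 0.115 to 0.157 RPM. The median of the mean levels was 0.194 RPM, with quartiles of 0.0576 and 1.30 RPM, and 123 of the 171 (71.9%) were under 1 RPM. A mean of 10 RPM or more was reached by 18 (10.5%), and of 100 RPM by 3, among them miR-3107-5p at 3788 RPM.

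For comparison, the 681 older miRNAs had a median of 10.4 RPM, and 50.2% of them reached 10 RPM. The 82 miRNAs named miR-1000 to miR-2999 lay between, with a median of 0.491 RPM and 18 of them at 10 RPM or more. Late-annotated miRNAs were thus 18.2% of the listed miRNAs and took 0.491% of the miRNA reads. Most of these reads were counted on miR-3107-5p, whose level is uncertain, as described below. Without it the class had 1027 to 1174 RPM in a library. Within the class, the 107 named miR-3000 to miR-3999 had a median of 0.284 RPM and held 16 of the 18 miRNAs at 10 RPM or more. The 49 named miR-4000 to miR-5999 had a median of 0.119 RPM, and the 15 named miR-6000 and above had 0.109 RPM, with miR-6540-5p as their abundant exception.

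**Figure D1:**
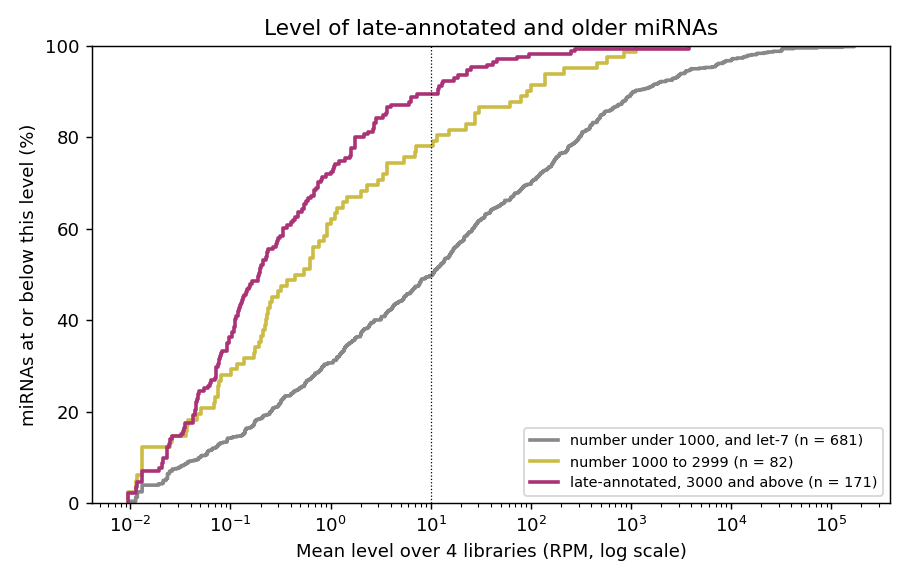
Cumulative share of miRNAs (y axis, %) at or below a mean level over the 4 libraries (x axis, RPM, log scale), for the 171 late-annotated miRNAs, the 82 named miR-1000 to miR-2999 and the 681 older ones. The dotted line marks 10 RPM, which 10.5% of the late-annotated and 50.2% of the older miRNAs reached.

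How many were seen rested on depth. When each library was thinned at random to 1000000 miRNA reads, 59 to 66 late-annotated miRNAs (34.5 to 38.6%) still had a read, against 71.2 to 73.9% of the older miRNAs. At 10000000 reads 117 to 121 were seen. Detection differed between the genotypes for few of them, all at low counts. How often this occurs among all listed miRNAs was not counted. miR-5125 had 6 and 4 reads in WT1 and WT2 and none in the AD mice. miR-5710 and miR-3088-5p had 1 read in each WT mouse only, and miR-3964 and miR-3077-5p 1 read in each AD mouse only, which is under the 3 reads that a count of 0 allows.

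miR-3107-5p held most of the reads of the class. It had 101124, 96928, 82042 and 57664 reads in WT1, WT2, APP3 and APP4, or 3877, 4390, 3858 and 3027 RPM. It was highest in WT2 and lowest in APP4, while WT1 and APP3 lay within 20 RPM of each other. It ranked 38 among all 942 miRNAs and supplied between 74.0 and 79.4% of the reads of the late-annotated miRNAs in each library.

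The count of miR-3107-5p was nearly that of miR-486-5p, a miRNA known from red blood cells and muscle. miR-486-5p had 101722, 97530, 82534 and 58151 reads, which is 598, 602, 492 and 487 more. No other late-annotated miRNA with a mean of 20 reads or more was within 5% of a miRNA outside the class in all 4 libraries. In GENCODE (vM21, GRCm38) the hairpin Mir3107 lies at chr8:23142573-23142662 on the minus strand, opposite the hairpin Mir486 and opposite an intron of Ank1, the gene of erythrocyte ankyrin. The RefSeq gene table gives mir-486b as another name of Mir3107. Variant reads were included in the authors' counts, and the table does not show which of these 2 miRNAs a read came from, so the level of miR-3107-5p is uncertain. The other arm, miR-3107-3p, had 59, 66, 53 and 69 reads.

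The other abundant late-annotated miRNAs were 1 order of magnitude lower or more. miR-3099-3p, from an intron of the imprinted gene Usp29 (hairpin at chr7:6803587-6803670), had 243, 306, 255 and 311 RPM in WT1, WT2, APP3 and APP4. Each genotype had 1 low and 1 high mouse, and the groups overlapped. miR-3059-5p, from an intron of Mgat4c, a glycosyltransferase gene (chr10:101772692-101772772), had 248, 272, 313 and 182 RPM, with the AD mice above and below both WT mice. miR-3068-3p, whose hairpin is in Alkbh1, in an exon or an intron by transcript, had 99.1, 92.2, 82.5 and 109 RPM, again with the AD mice on both sides.

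miR-3475, from outside annotated genes on the X chromosome, had 55.2, 69.4, 95.7 and 70.3 RPM. miR-6540-5p, from an intron of Gap43, the gene of an axonal growth cone protein (chr16:42303362-42303469, minus strand), had 41.3, 38.2, 59.7 and 45.2 RPM. miR-3078-5p, from an exon of the host transcript of miR-124, the most typical miRNA of neurons, had 21.1, 21.6, 25.4 and 23.8 RPM. In these 3 both AD mice were above both WT mice in RPM, although under TMM scaling, which corrects library sizes for the makeup of the library, the log2 fold changes of miR-6540-5p and miR-3078-5p in APP4 over WT1, 0.13 and 0.17, turned to -0.12 and -0.08. In each of the 3, APP3 was the highest library.

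miR-3082-3p (hairpin in Stub1, a ubiquitin ligase gene) had 38.7, 53.7, 39.9 and 36.2 RPM, and miR-3084-3p (hairpin in an intron of Cbwd1, where a small nucleolar RNA is also annotated) 38.3, 46.9, 41.2 and 18.2 RPM. The first stood out for a high WT2 and the second for a low APP4. miR-3086-5p, from an intron of Hspa12a, a gene of the Hsp70 family, had 26.1, 20.5, 27.4 and 28.0 RPM, and miR-3061-3p, from an exon of the phosphatase gene Ppp2ca, 24.1, 19.3, 23.6 and 24.8 RPM. Both were lowest in WT2. miR-3093-5p, from an intron of a long non-coding RNA, had 404, 536, 426 and 280 reads, and here WT2 was the highest, also in RPM.

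**Figure D2:**
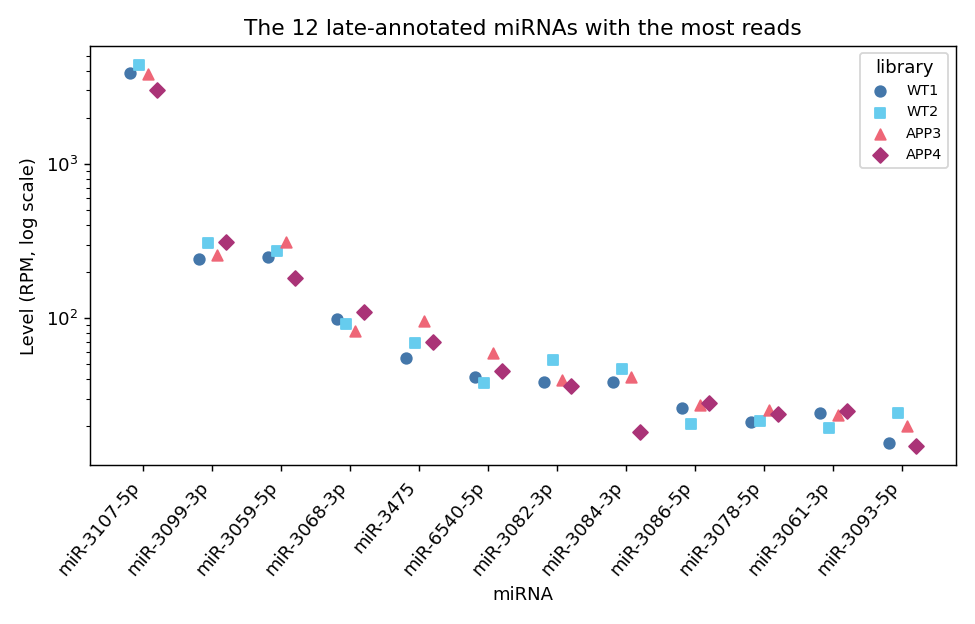
Level (y axis, RPM, log scale) of the 12 late-annotated miRNAs with the highest mean level (x axis) in each of the 4 libraries, 1 marker per library. miR-3107-5p is at 3027 to 4390 RPM, the other 11 are at 313 RPM or less, and APP4 is the lowest library of miR-3059-5p and miR-3084-3p.

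Both arms were listed for 57 late-annotated hairpins, and 26 of them had 20 reads or more in every library. In these 26 the 3p arm held most reads in 17 and the 5p arm in 9, against 117 and 109 of the 226 older hairpins. The leading arm held a median of 94.8% of the reads, against 96.6% in older hairpins. It held over 90% in 19 of the 26 (73.1%) and in 65.0% of the older hairpins. Among the 18 hairpins of miR-1000 to miR-2999 with as many reads, the 5p arm led in 11 and the 3p arm in 7. The leading arm of these 18 held a median of 89.3%, and over 90% in 44.4% of them. The leading arm was on the same side in all 4 libraries for 25 of the 26. The exception was mir-5615, with 37.2, 50.0, 38.9 and 37.9% of reads on the 5p arm in WT1, WT2, APP3 and APP4.

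Among the most uneven hairpins were mir-3107 and mir-3059, with over 99% of reads on the 5p arm, and mir-3099 and mir-3082, with under 1% there. mir-6540 gave 95.2, 91.3, 91.9 and 92.6% of its reads from the 5p arm. mir-3084 gave 8.78, 7.17, 7.79 and 12.6%, so its 5p share was highest in APP4, where the 3p arm had the fewest reads. The 5p share of a hairpin spanned a median of 4.19 percentage points between the 4 libraries, and most in mir-5621, which had 33 reads in its smallest library.

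**Figure D3:**
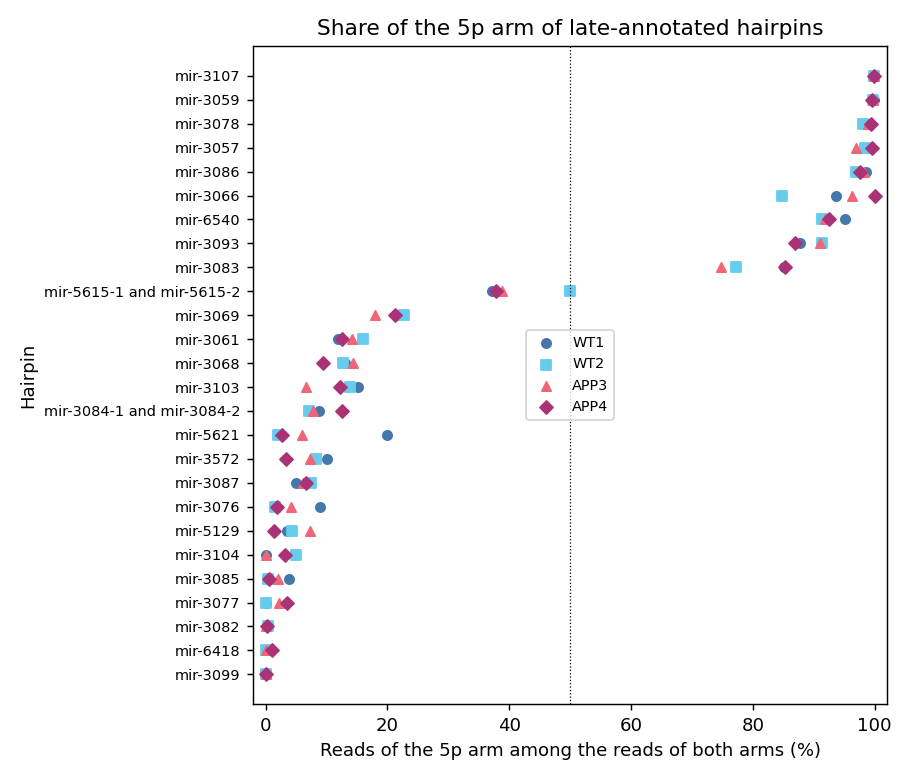
Share of reads on the 5p arm (x axis, %) in each of the 4 libraries for the 26 late-annotated hairpins with at least 20 reads in every library (y axis), 1 marker per library. Nearly all hairpins lie at the left or right end, 17 of them on the 3p side and 9 on the 5p side of the dotted line at 50%, and the markers of mir-5615 lie at 37.2 to 50.0%.

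The class comes from 117 hairpins, of which 108 could be located by name in GENCODE vM21. Of these, 59 (54.6%) lie in an intron, 8 in an exon, 12 in an exon or an intron by transcript, 12 on the strand opposite a gene and 17 (15.7%) outside genes. The shares in introns and outside genes were 53.4% and 26.4% for older hairpins. Another miRNA hairpin lay within 10000 bases of 16 late-annotated hairpins (14.8%) and of 64.3% of the older ones. The 48 located hairpins of miR-1000 to miR-2999 were close to the late-annotated ones. Of these, 56.25% lie in introns, 16.7% outside genes and 16.7% within 10000 bases of another. Hosts known to be expressed in neurons include Gap43, Brsk2 (mir-3104), a kinase gene of neuronal polarity, and Syn1 (mir-5617), the gene of synapsin I. How common such hosts are among late-annotated or older hairpins was not counted, and the level of the hosts was not measured.

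The ends of 2 hairpins lay within 10 nt of both ends of an intron, as in mirtrons, whose hairpins are released by splicing. These were mir-3062 in a 97 nt intron of Pfas and mir-3102 in a 104 nt intron of Arhgef17. Such ends were found in 1.85% of the located late-annotated hairpins, 8.33% of those of miR-1000 to miR-2999 and 0.493% of the older ones. Another 3 late-annotated hairpins overlap an annotated small RNA of another class, namely mir-3069 (Scarna13), mir-3084-1 (a small nucleolar RNA) and mir-5121 (Snord33). The same held for 2 of the 48 located hairpins of miR-1000 to miR-2999 and 1 of the 406 older ones. Reads of such a small RNA could have been counted on the miRNA, which was not tested.

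On the opposite strand of another miRNA hairpin lie 8 of the 108 located late-annotated hairpins, so that an arm of one can be complementary to an arm of the other. This was also so for 28 of the 406 located older hairpins and 0 of the 48 of miR-1000 to miR-2999. Of the 8, mir-3074-1, mir-3074-2, mir-3544 and mir-3107 face older hairpins, whereas mir-3073a and mir-3073b, and mir-5615-1 and mir-5615-2, face each other. One case is miR-3074-5p, opposite miR-24-3p. The capitals mark the stretch of 20 bases in which they are complementary.
miR-3074-5p: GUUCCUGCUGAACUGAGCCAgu
miR-24-3p: UGGCUCAGUUCAGCAGGAACag
miR-3074-5p had 44, 35, 39 and 37 reads in WT1, WT2, APP3 and APP4 and miR-24-3p 43366, 44404, 31809 and 31123, so nearly all reads came from the older strand. Likewise miR-3544-5p is complementary over 21 bases to miR-337-3p.
miR-3544-5p: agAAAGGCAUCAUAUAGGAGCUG
miR-337-3p: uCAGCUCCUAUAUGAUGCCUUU
miR-3544-5p had 0, 1, 4 and 1 reads where miR-337-3p had 1005, 1362, 1032 and 947. Both arms of mir-5615 are complementary over 20 bases, and its 2 hairpins (mir-5615-1 and mir-5615-2) face each other.
miR-5615-5p: CUUGGUUGUUUUCUGAGACAga
miR-5615-3p: UGUCUCAGAAAACAACCAAGga
With 32, 29, 21 and 25 reads for the 5p arm and 54, 29, 33 and 41 for the 3p arm, these were the most even arms among the 26 hairpins, and since either hairpin can give either sequence the strand of origin cannot be told apart.

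Before the genotypes are compared, the tissue and the libraries are described briefly. The 4 neuronal marker miRNAs sum to 73585, 79560, 72692 and 80270 RPM in WT1, WT2, APP3 and APP4, and the liver marker miR-122-5p was at 0.940 to 4.45 RPM. The 5 epithelial markers (the miR-200 family) were all found, with none at 0, and sum to 59.4 and 64.5 RPM in the WT mice, 45.4 RPM in APP3 and 1108 RPM in APP4, so APP4 stands apart. The 4 microglia and leukocyte markers were all found and sum to 65.0 and 85.3 RPM in the WT mice and 101.9 and 104.6 RPM in the AD mice. This sum does not overlap between the genotypes. Most of it is miR-142-5p, at 54.7, 74.3, 88.4 and 90.9 RPM in WT1, WT2, APP3 and APP4. miR-142-3p and miR-155-5p did not overlap either, whereas miR-223-3p did, at 4.52, 5.89, 6.07 and 5.72 RPM. Of the 623 miRNAs tested between the genotypes below, 36.0% did not overlap in RPM. The 3 red blood cell markers were all found and sum to 3993 and 4626 RPM in the WT mice and 4047 and 3206 RPM in the AD mice, with APP4 lowest. Nearly all of this sum is miR-486-5p, described above, whereas miR-451a was at 91.4, 200, 159 and 146 RPM and miR-144-3p at 2.57, 8.47, 7.57 and 7.56 RPM in WT1, WT2, APP3 and APP4, both lowest in WT1. In bulk tissue, fewer cells of a type and less RNA per cell cannot be told apart. The part of these differences in the results of the late-annotated miRNAs was not tested.

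The late-annotated miRNAs together had 4903 and 5526 RPM in WT1 and WT2 and 5032 and 4091 RPM in APP3 and APP4. APP4 was the lowest library and APP3 lay between the WT mice. The mean was 5215 ± 440 RPM in WT and 4561 ± 666 RPM in AD mice (SD, n = 2 each), with p = 0.667 in a two-sided exact permutation test, where 2 against 2 mice have 6 arrangements and cannot give less than 2 in 6. Without miR-3107-5p the sum was 1027, 1136, 1174 and 1063 RPM, or 1081 ± 77.3 in WT and 1119 ± 78.4 in AD mice (exact permutation p = 0.667), so the lower sum in AD mice came from this miRNA and turned slightly upward without it.

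With the mice as replicates, no late-annotated miRNA was called between AD and WT mice. Of the 171, 64 passed the filter on low counts (the 107 that did not were at 0.478 RPM or less). edgeR's quasi-likelihood test gave no FDR under 0.05 among these 64 and called 0.0% of all 623 miRNAs tested. The smallest FDR of a late-annotated miRNA was 0.768. An unadjusted p under 0.05 was reached by 3 of the 64, where 5.78% of all tested miRNAs reached it. DESeq2 gave 0 by FDR and 1 by unadjusted p among the 64, and the share of all miRNAs was not counted for DESeq2. The median log2 fold change of the 64 in edgeR, AD over WT, was 0.01 against -0.02 for all tested, with 32 above 0 and 32 below. The genotypes did not overlap in RPM for 22 of the 64 (34.4%), near the 36.0% of all miRNAs tested. Of these 22, 19 were higher in both AD mice and 3 lower, where 27.0% and 8.99% of all tested were. Under TMM the split was 11 higher and 12 lower, with 14.9% and 19.1% of all tested, so the lean towards higher values in RPM depended on the scaling.

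The 3 with an unadjusted p under 0.05 were miR-3085-3p, miR-3081-3p and miR-5113. miR-3085-3p, whose hairpin lies outside annotated genes at chr19:42280082-42280170 (minus strand), had 220, 252, 288 and 359 reads in WT1, WT2, APP3 and APP4, or 8.43, 11.4, 13.5 and 18.8 RPM. Both AD mice were above both WT mice, but APP3 was nearer to WT2 than to APP4. The means were 9.92 ± 2.11 RPM in WT and 16.2 ± 3.75 RPM in AD mice (SD, n = 2 each). The log2 fold change in edgeR was 0.57 (SE 0.23, unadjusted p = 0.0387, FDR 0.768). It ranged from 0.39 to 0.80 when 1 mouse was left out. Its other arm, miR-3085-5p, had 9, 1, 6 and 2 reads, too few to compare.

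miR-3081-3p, from an intron of Boc, the gene of a Hedgehog co-receptor, had 10, 3, 14 and 19 reads, or 0.383, 0.136, 0.658 and 0.997 RPM. The AD mice were higher than the WT mice, with 19 reads at most. In edgeR the log2 fold change was 1.46 (SE 0.59, unadjusted p = 0.0422, FDR 0.768), and it ranged from 0.95 to 2.48 when 1 mouse was left out. Its other arm, miR-3081-5p, had 2 reads in APP4 and none in the other libraries.

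miR-5113, from an exon of Tnrc6b, whose protein binds Argonaute in the silencing complex, had 27, 22, 11 and 13 reads, or 1.04, 0.996, 0.517 and 0.682 RPM. Here both AD mice were lower, with close values within each genotype. The log2 fold change in edgeR was -0.90 (SE 0.38, unadjusted p = 0.0499, FDR 0.768). None of these 3 passed the correction over all miRNAs tested. With the sibling pair as a block the unadjusted p of miR-5113 was 0.0634 in edgeR, and those of miR-3085-3p and miR-3081-3p were 0.0486 and 0.0313.

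The other large log2 fold changes in edgeR had no unadjusted p under 0.05. On the higher side, miR-5117-3p had 17, 11, 19 and 23 reads (log2 fold change 0.71, SE 0.40, FDR 0.929), miR-3059-3p 10, 11, 13 and 17 reads (0.63, SE 0.45, FDR 0.929), and miR-3104-3p 20, 19, 23 and 31 reads (0.59, SE 0.35, FDR 0.929). In all 3 both AD mice were above both WT mice in RPM, by a few reads. On the lower side, miR-3064-3p, whose hairpin lies in Ddx5, a helicase gene that itself acts in miRNA processing, had 11, 11, 10 and 4 reads (-0.53, SE 0.59, FDR 0.958), with only APP4 apart.

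For the abundant miR-3107-5p the means were 4133 ± 363 RPM in WT and 3442 ± 587 RPM in AD mice, and edgeR gave a log2 fold change of -0.39 (SE 0.21, FDR 0.929). In miR-3084-3p the log2 fold change of -0.62 (SE 0.40, edgeR FDR 0.929) rested on APP4, since APP3 lay between the WT mice. Without APP3 the log2 fold change of miR-3084-3p was -1.42, with an unadjusted p of 5.69e-06 in edgeR, and it was the only late-annotated miRNA called in any fit that left out 1 mouse. That fit has APP4 as its only AD mouse, so this p rests on the spread between the WT mice and assumes that AD mice vary alike. Without APP4 the log2 fold change was -0.11. Blocking on sibling pairs gave -0.76, with an unadjusted p of 0.0416 in edgeR.

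**Figure D4:**
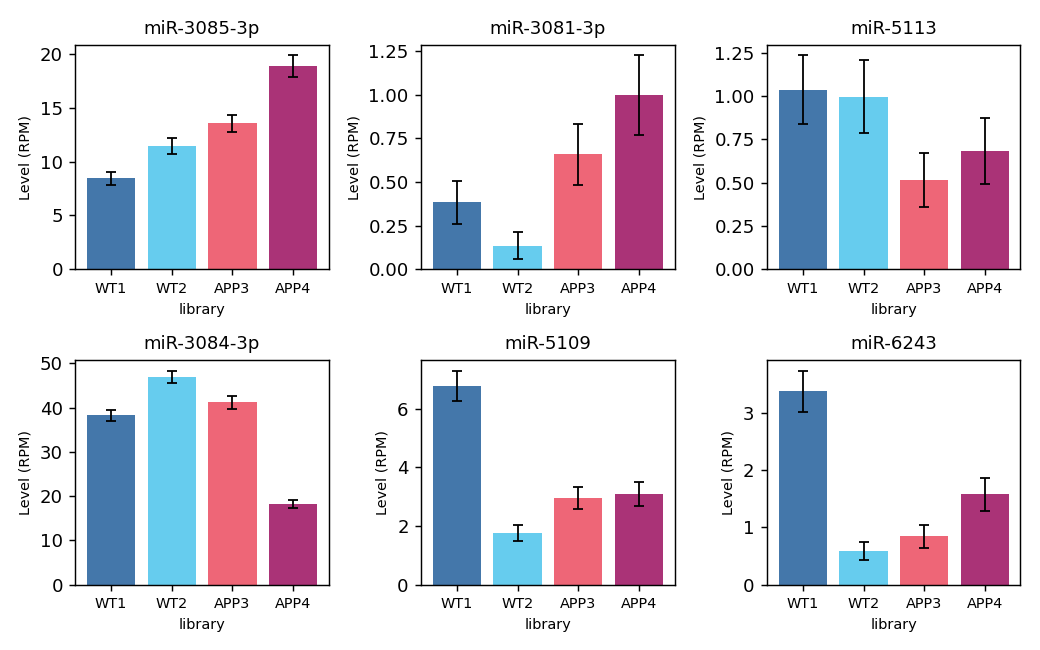
Level (y axes, RPM, from 0) of 6 late-annotated miRNAs in the 4 libraries (x axes), each bar 1 mouse, with error bars of 1 SD of counting error. miR-3085-3p and miR-3081-3p are higher and miR-5113 is lower in both AD mice, whereas miR-3084-3p stands out for a low APP4 and miR-5109 and miR-6243 for a high WT1.

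The sibling pairs were also compared library against library by Fisher's exact test (two-sided, FDR under 0.05 and at least 1.5-fold). It says whether 2 libraries differ, not whether the genotypes do, and the SE of its log2 fold changes covers counting error only. Between APP4 and WT1, 14 of the 159 late-annotated miRNAs with a read were called (8.81%), against 11.6% of all 899 miRNAs tested. The calls were 10 higher in APP4 and 4 lower, where 9.68% and 1.89% of all miRNAs were. When library sizes were corrected by TMM, which moves all log2 fold changes of this pair by -0.25, the split became 3 higher and 11 lower, with 4.34% and 5.12% of all miRNAs. The split therefore depended on the scaling.

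Of the 14 calls, 12 were under 10 RPM in both libraries. The others were miR-3085-3p, with a log2 fold change of 1.16 (SE 0.12, FDR 7.34e-21), and miR-3084-3p, with -1.07 (SE 0.09, FDR 4.18e-35). Under TMM miR-3085-3p, miR-5709 and miR-5122 were still called higher and all 4 lower calls were kept, while the other higher calls fell under the limits, with log2 fold changes that were still above 0 for miR-3104-3p (0.82), miR-6540-3p (0.55) and miR-3107-3p (0.42). miR-5709 went from 3 reads in WT1 to 14 in APP4, a ratio of 6.39 (exact 95% interval 1.78 to 34.7), and miR-5122 had 24 and 39 reads, with a log2 fold change of 1.14 (FDR 0.00596). WT1 was the low library of miR-5122, since WT2 and APP3 had 44 and 45 reads. Also called higher were miR-6540-3p, miR-3107-3p, miR-3104-3p, miR-3081-3p, miR-3109-3p, miR-3474 and miR-5620-3p, the last 2 with 5 reads in APP4 and none in WT1. Called lower beside miR-3084-3p were miR-5109, miR-6243 and miR-6537-3p, which had 12 reads in WT1 and 1 in APP4.

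Between APP3 and WT2, 7 of the 157 late-annotated miRNAs with a read were called (4.46%), against 6.81% of all 896. All 7 were higher in APP3 and none was lower, where 3.35% and 3.46% of all miRNAs were, and under TMM the split was 7 and 1, with 3.24% and 3.68% of all miRNAs. Without the limit on the fold and the correction, 24 of the 157 had an unadjusted p under 0.05 in Fisher's exact test. The share of all miRNAs at this looser limit was not counted, so the 24 cannot be set against it. The 1 call above 10 RPM was miR-6540-5p, with 843 reads in WT2 and 1270 in APP3 and a log2 fold change of 0.64 (SE 0.06, FDR 2.35e-23). In the other pair it had a log2 fold change of 0.13 (FDR 0.107), which was -0.12 under TMM. Its other arm, miR-6540-3p, had 54, 80, 112 and 69 reads in WT1, WT2, APP3 and APP4, and both arms were highest in APP3.

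The other 6 higher in APP3 were miR-6418-3p, miR-5115, miR-5109, miR-5100, miR-3081-3p and miR-3077-3p. miR-6418-3p had 126 reads in WT2 and 192 in APP3, a log2 fold change of 0.66 (FDR 0.00026), and miR-5115 had 37 and 67 reads, a log2 fold change of 0.90 (FDR 0.00766). miR-5115 had 86 reads in WT1 and 61 in APP4, so that WT2 was the low library.

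Called in both sibling pairs were 2 late-annotated miRNAs. miR-3081-3p was higher in both AD mice, with a log2 fold change of 1.35 (FDR 0.0349) in APP4 over WT1, a call that was lost under TMM, where it was 1.09. In APP3 over WT2 its ratio was 4.84 (exact 95% interval 1.35 to 26.3, FDR 0.0208), which rests on 3 reads in WT2. miR-5109 was called in opposite directions, and its 177 reads in WT1 stood apart from 39, 63 and 59 in WT2, APP3 and APP4.

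**Figure D5:**
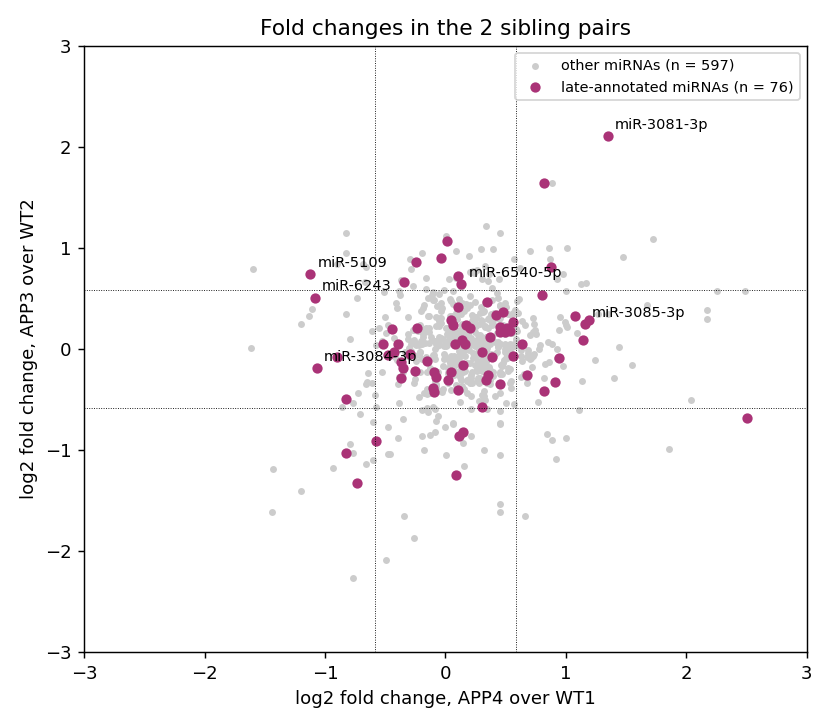
Log2 fold change of each miRNA in the sibling pair APP4 over WT1 (x axis) and in APP3 over WT2 (y axis), for miRNAs with at least 3 reads in every library: 76 late-annotated (coloured) and 597 others (grey, 8 of them outside the axes). Dotted lines mark 1.5-fold, and miR-3081-3p lies past them in both pairs on the higher side while miR-5109 lies past them in opposite directions.

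Mice of one genotype were compared by the same rule. Between WT2 and WT1, 8 of 158 late-annotated miRNAs were called (5.06%), against 10.1% of all 879, with 4 higher in WT2 (7.62% of all) and 4 lower (2.5% of all), or 2 and 4 under TMM (4.55% and 4.21% of all). The higher ones included miR-5122, with a log2 fold change of 1.10 (FDR 0.0062), and miR-6540-3p, with 0.80, both also called in APP4 over WT1. Among the lower ones were miR-5109, with a log2 fold change of -1.93, and miR-6243, with -2.47, whose reads were 88, 13, 18 and 30 in WT1, WT2, APP3 and APP4. Between APP4 and APP3, 6 of 160 were called (3.75%), against 8.05% of all 907, with 3 higher in APP4 (5.07% of all) and 3 lower (2.98% of all), or 1 and 4 under TMM (3.2% and 4.63% of all). The lower ones were miR-3084-3p with -1.18, miR-6418-3p with -0.95 and miR-3059-5p with -0.78.

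The size of the differences was summarised for the 22 late-annotated miRNAs with a mean of 5 RPM or more. Their median absolute log2 fold change was 0.357 in APP4 over WT1 and 0.242 in APP3 over WT2, against 0.240 in WT2 over WT1 and 0.322 in APP4 over APP3. For all 424 miRNAs at this level it was 0.277, 0.210, 0.251 and 0.219, in the same order. For the late-annotated miRNAs the value of APP3 over WT2 lay between those of the pairs of one genotype. That of APP4 over WT1 was above both, as it also was for all 424 miRNAs. These values are without TMM, which moves the log2 fold changes of APP4 over WT1 by -0.25.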

How the data were processed

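Small RNA libraries (TruSeq) of the cortex of 4 mice, 2 WT and 2 AD, were used. The authors processed the reads (CASAVA 1.8), trimmed and filtered them to lengths of 18 to 35 nt, and matched them to mouse miRNAs of miRBase, and the labels name the build mm9. They deposited raw counts for 942 mature miRNAs, with reads of variants counted, and the same values as RPM of clean reads, used here only for the clean read totals. Near-identical miRNAs can share reads.

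Counts were scaled to each library's miRNA reads. Genotypes were compared by the quasi-likelihood test of edgeR 4.0.16 (R 4.3.3) after filterByExpr and TMM, with Benjamini-Hochberg adjustment over all miRNAs. DESeq2 1.42.0 and the sibling pair as a block were alternatives. The pairing is that of the paper, and the deviations of siblings correlated at r = 0.237 over 252 miRNAs. Fisher's exact tests (scipy 1.17.1) compared 2 libraries, with 0.5 read added for log2 fold changes. Fisher's rule and edgeR were tested on simulated data, which for Fisher's rule held counting error only and no spread between mice. Intervals cover counting error only. The p-values of edgeR and DESeq2 on all mice rest on the spread between 2 mice per genotype. Those of Fisher's exact test rest on counting error only.

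Named are the 12 miRNAs with the highest mean, the 5 largest edgeR changes in each direction, those with an unadjusted edgeR p under 0.05, those called in both sibling pairs, 2 that the paper names, their other arms, and those with a shared sequence. Others named were chosen after their values were seen, as called in 1 pair or as described for their hairpin or detection. The members of the class and the lists were chosen with earlier results of these data known.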

Additional observations from a re-analysis of the deposited data

Results flagged for a closer look

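miR-5109 moved in opposite directions in the sibling pairs. Its log2 fold change was -1.12 in APP4 over WT1 (SE 0.22, FDR 1.99e-07 in Fisher's exact test) and 0.74 in APP3 over WT2 (SE 0.29, FDR 0.0377). The difference between the pairs itself was not tested, and each pair is 1 mouse against 1 mouse. With 177, 39, 63 and 59 reads in WT1, WT2, APP3 and APP4, the WT mice were the highest and the lowest library.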

How the results depend on the processing

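The count of 0 late-annotated miRNAs called between genotypes remained 0 without TMM, without the filter (171 tested), with DESeq2 and with the replicate block of sibling pairs (3 by unadjusted p, with miR-3084-3p in place of miR-5113), and ranged from 0 to 1 when 1 mouse was left out, the 1 being miR-3084-3p without APP3 (log2 fold change -1.42). The share of all miRNAs with an unadjusted p under 0.05 was not counted for the block, so its 3 cannot be set against it. Without WT1, miR-5109 and miR-6243 turned from -0.67 and -0.91 to 0.71 and 0.95 (lowest -1.30 and -1.63, without WT2). The log2 ratio of the summed level turned from -0.19 to 0.049 without miR-3107-5p, and it was -0.32 under TMM and -0.35 to -0.05 with 1 mouse left out. The median level was 0.166 RPM over all clean reads. In APP4 over WT1, a minimum of 10 RPM left 2 calls (1 higher and 1 lower) of 14, where 10.7% and 3.13% of all miRNAs tested were. TMM gave 3 higher and 11 lower, with 4.34% and 5.12% of all. In APP3 over WT2, the calls fell from 7 to 1 with the 10 RPM minimum and to 2 at 2-fold, all higher. Of all miRNAs, 3.43% were higher and 4.49% lower with the 10 RPM minimum, and 0.558% and 2.01% at 2-fold. TMM and the clean read total each added 1 lower, with 3.68% of all lower under each. The alternatives for mice of one genotype were chosen after seeing the data. In WT2 over WT1 the 10 RPM minimum left 1 call (1 higher, 0 lower), where 8.18% and 2.37% of all miRNAs were. The 2-fold limit left 5 (2 higher), with 3.19% of all higher and 1.14% lower, and TMM 2 higher (4.55% of all). In APP4 over APP3 both the 10 RPM minimum and the 2-fold limit left 3, with 1 higher under the first and 1 lower under the second. Of all miRNAs, 5.97% were higher and 4.42% lower under the first, and 3.09% and 1.1% under the second. TMM left 1 higher (3.2% of all). The comparison of genotypes has 2 mice in each and leaves 107 of the 171 miRNAs untested under the filter, and the cause of these shifts was not tested.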
